A study of Drosophila melanogaster with 35 samples.

Results

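Cytochrome P450 enzymes are haem proteins that use oxygen and electrons from a partner protein to oxidize small molecules, among them insecticides, plant compounds, fatty acids and steroid hormones. In Drosophila most members sit in the endoplasmic reticulum, a smaller group works in mitochondria, and many are expressed in the midgut, Malpighian tubules and fat body, the tissues that clear foreign compounds. The genes are named by family, so that Cyp4, Cyp6, Cyp9 and Cyp12 each group related proteins. On the array, 87 probe sets for 83 genes matched a single gene whose current symbol starts with Cyp and a digit, of 12443 single-gene probe sets for 10844 genes. Of these, 81 genes (85 probe sets) were cytochrome P450 genes, and the other 2, Cyp1 and Cyp40, encode cyclophilins, unrelated protein-folding enzymes, and were set apart. Where a gene had several probe sets, the one with the highest mean signal stood for it. The family was chosen by gene name alone, not by measured values.

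RNA of adult male flies was hybridized to 35 arrays in 8 groups, 1 array per RNA sample. All flies, controls included, had the genotype that the study's methods write as w[1118];rtTA(3)E2/+. They were the progeny of Oregon-R wild-type males and females of a w[1118] strain with an rtTA transgene over the TM3 balancer. Old flies were 61 days of age (n = 4), Hyperoxia flies were 8 days of age by the labels after 5 days in 100% oxygen (n = 6), and both were compared with Young controls of 10 days (n = 6). The study's methods give a slightly older age for flies put under stress in general. Old and Hyperoxia flies were survivors of cohorts in which many flies had died. Heat stress flies were 9 days of age and were kept for 5.5 h at 37 °C in vials with 1% sucrose (n = 3). Ionizing radiation flies were 11 days of age, received 5666 rads per hour for 16 h on standard food and then spent 2 days in 1% sucrose vials (n = 4). Hydrogen peroxide flies (n = 4) and Sugar flies (n = 4) were 11 days of age after 2 days in 1% sucrose vials, with 3% hydrogen peroxide added for the first of these groups. These groups were compared with Stress controls of 9 days (n = 4). Stress-treated and Sugar samples came from separate vials of 25 flies. The study describes its arrays as biological replicates, but neither it nor the labels say for Old, Hyperoxia and Young arrays which vials or cultures the samples came from. P-values measure the spread between these samples.

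Signals are given as quantile-normalized intensities in arbitrary units, and they compare 1 probe set between groups, not genes with each other. A gene was called up- or down-regulated when limma's nested F-test over the 6 comparisons passed a false discovery rate of 1% and the change was at least 1.5-fold. The adjusted p printed beside a gene is limma's moderated test of that comparison alone, which is a different test, so that a called gene can carry a larger adjusted p. Fold changes are log2 values after adding 38.9 to each intensity, which understates the change of dim genes. As deposited, the trimmed mean of an array was 992 to 995 on 31 arrays and 106 to 166 on the 4 Sugar arrays, before the normalization used here. The array labelled Old replicate 2 had an actin 3'/5' signal ratio of 283, against 1.48 to 7.44 on the others. The numbers of P450 genes called in Old flies are also given without it, and the calls then lost are named. Female marker genes (yolk proteins and eggshell genes) summed to 881 to 4063 on all 35 arrays, against 39875 to 114816 for testis markers. RNA came from many tissues at once, so that fewer cells of a type and less RNA per cell cannot be told apart.

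Across the 6 comparisons, 50 of the 81 P450 genes (61.7%) were called in at least 1, against 38.8% of all genes, and 31 were called in none. P450 genes were called up more often than down in Old, Hyperoxia and Sugar flies, and down more often than up after heat stress, ionizing radiation and hydrogen peroxide. In Old flies 11 were up-regulated and 6 down-regulated (13.6% and 7.41% of P450 genes), beside 5.48% and 9.41% of all genes. In Hyperoxia flies 11 were up and 9 down (13.6% and 11.1%), beside 3.45% and 4.8% of all genes. Heat stress raised 5 and lowered 23 (6.17% and 28.4%), beside 6.01% and 8.07% of all genes. Ionizing radiation raised 10 and lowered 16 (12.3% and 19.8%), beside 7.82% and 8.23%. Hydrogen peroxide raised 10 and lowered 19 (12.3% and 23.5%), beside 9.01% and 9.76%. Sugar raised 7 and lowered 2 (8.64% and 2.47%), beside 2.93% and 2.19%. The median log2 change of the P450 genes was 0.08 in Old, -0.04 in Hyperoxia, -0.28 in heat, -0.13 in radiation, -0.14 in peroxide and 0.04 in Sugar, where the median over all genes lay between 0.00 and 0.05. Counts of Old and Hyperoxia share the same Young controls, and the other 4 share the same Stress controls.

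**Figure D1:**
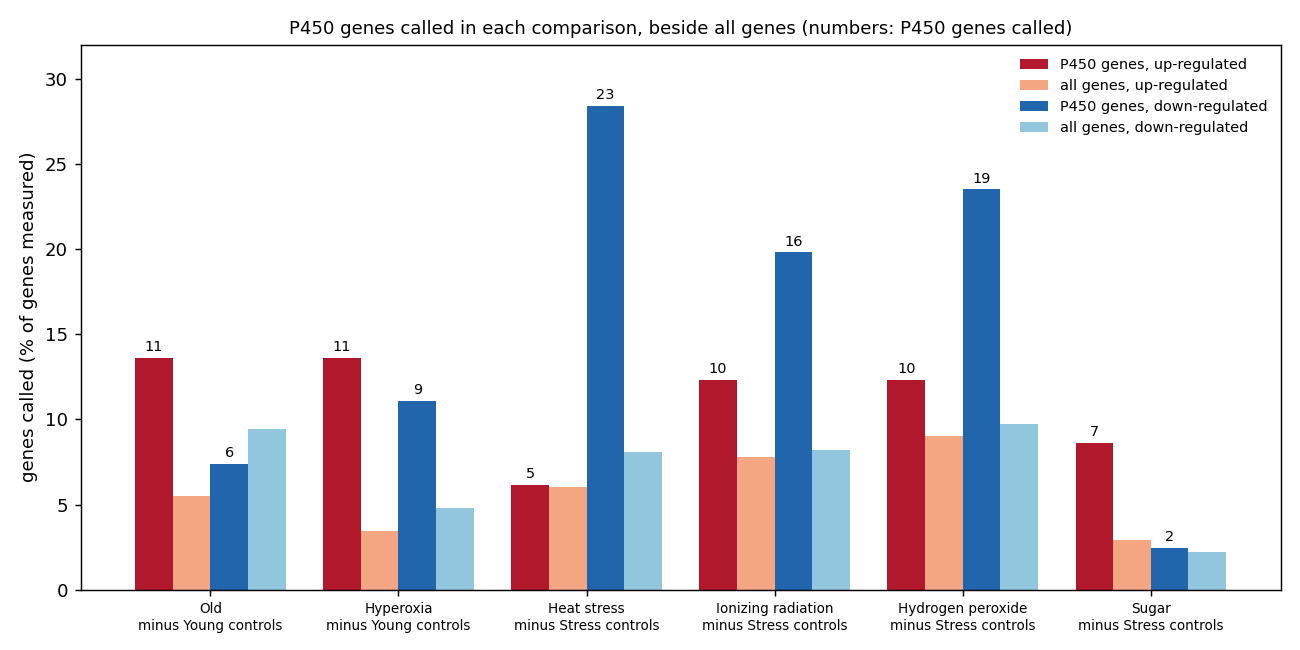
Percent of the 81 P450 genes and of all 10844 genes called up-regulated or down-regulated in each of the 6 comparisons, with the number of P450 genes written at the bars. In percentage points, the P450 share lies furthest above the all-gene share among genes lowered by heat stress (28.4% beside 8.07%).

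The 50 called genes came from most families but in different proportions. Of 22 Cyp4 genes, whose relatives in other animals hydroxylate fatty acids, 4 fell in Old, 6 in Hyperoxia, 8 in heat, 8 in radiation, 10 in peroxide and 1 in Sugar, and their median log2 change in peroxide was -0.71. The Cyp4 genes that rose numbered 3 in Old, 3 in Hyperoxia, 0 in heat, 4 in radiation, 3 in peroxide and 1 in Sugar. Of 23 Cyp6 genes, the family that holds most of the known insecticide-resistance enzymes, 4 rose and 1 fell in Old flies, 4 rose and 8 fell in heat, and 5 rose and 1 fell in Sugar. Cyp6 counts were even in Hyperoxia (3 up, 3 down) and in peroxide (4 up, 4 down), with 3 up and 4 down in radiation. Among the 5 Cyp9 genes, Cyp9b1 rose in Hyperoxia and in radiation, and Cyp9f2 and Cyp9h1 fell in heat. Among the 6 Cyp12 genes, which encode mitochondrial enzymes, 2 rose in Old flies, 1 rose in Hyperoxia, and 1 rose and 2 fell in heat. In radiation and in peroxide 1 rose and 1 fell each, and in Sugar 0 were called. Both Old calls, of Cyp12c1 and Cyp12d1-d, were lost without Old replicate 2, as were those of Cyp4aa1, Cyp4e3 and Cyp6a20. Of the 4 Cyp28 genes, Cyp28a5 and Cyp28d1 were called, and of the 6 Cyp313 genes only Cyp313a1 was. Of the 15 genes in other families, 3 fell in peroxide and at most 2 were called in any other comparison and direction.

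**Figure D2:**
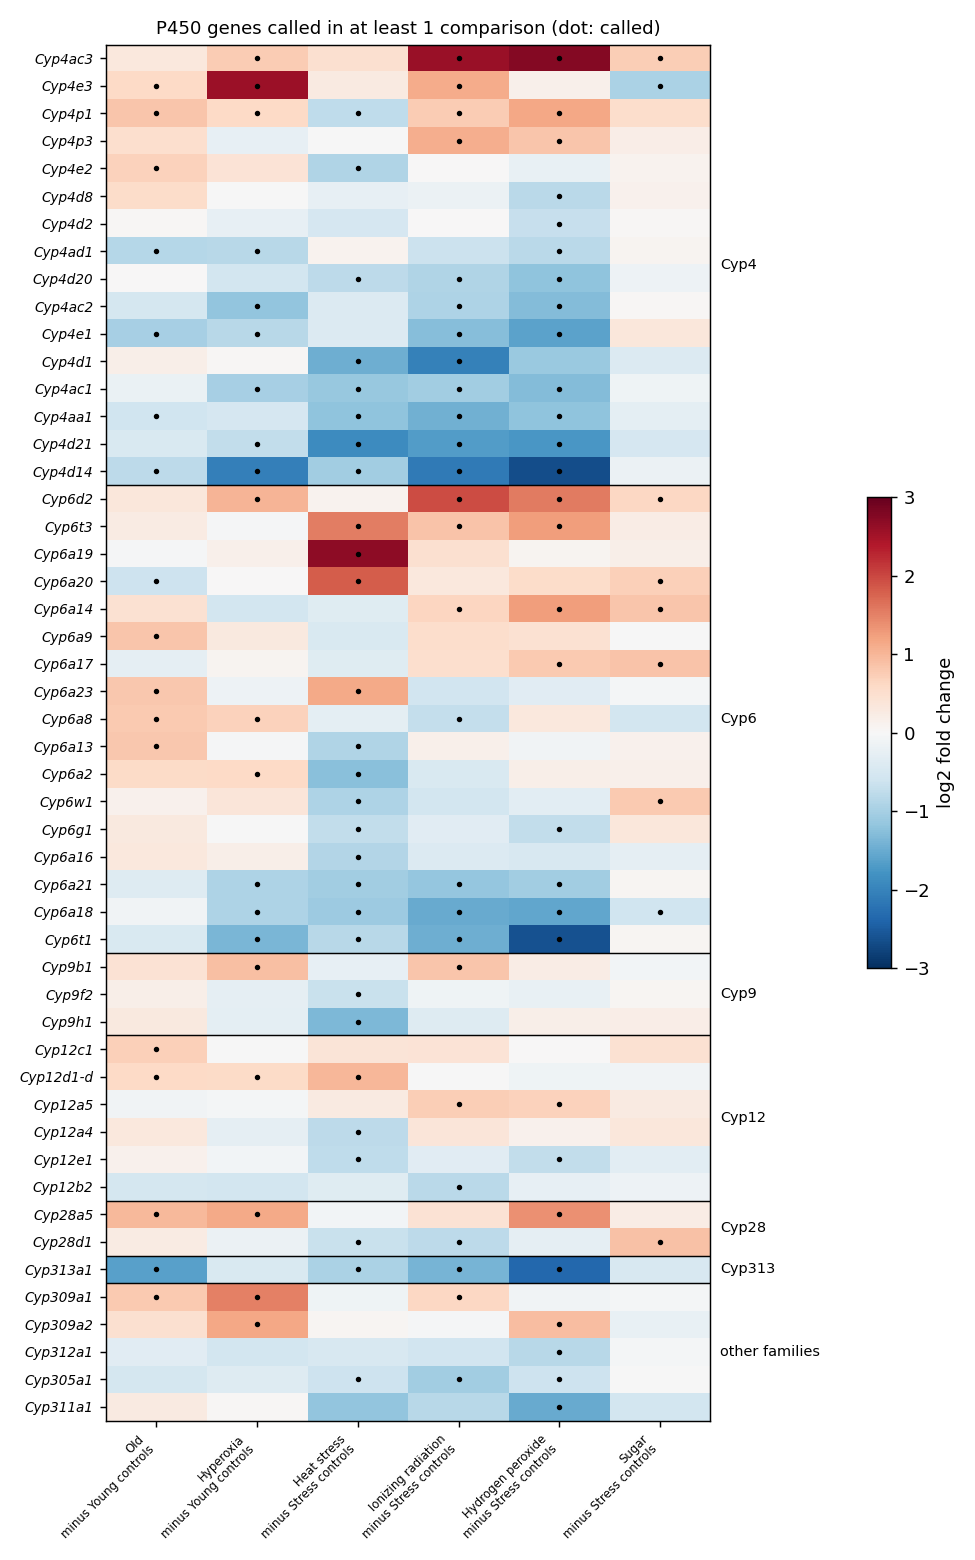
Log2 fold change of the 50 called P450 genes (down the page, by family) in the 6 comparisons (across), on a colour scale that ends at 3 in either direction, with a dot where the gene was called. Cyp4d14 is called down in every comparison except Sugar, while Cyp4e3 and Cyp6a20 are called in opposite directions in different comparisons.

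Old flies had higher signal for 11 P450 genes, by 1.50- to 1.95-fold, while the largest decrease, of Cyp313a1, was 3.09-fold. Cyp28a5 (chromosome 2L) gave 2149.7, 2529.8, 2649.8 and 2151 in Old flies, against 1070.2, 1203 and 1290.2 (lowest, median, highest) in Young controls. All 4 Old arrays lay above all Young arrays, and the log2 fold change was 0.97 (SE 0.14, adjusted p = 3.97e-06). Cyp6a13 gave 2618, 2889.7, 2520.1 and 3059.6 in Old flies, against 1462, 1544 and 1671 in Young controls, with no overlap and a log2 fold change of 0.81 (SE 0.095, adjusted p = 7.41e-08). Cyp6a8, a phenobarbital-inducible gene, averaged 6123 ± 617 in Old flies (SD, n = 4) and 3531 ± 339 in Young controls (n = 6), again without overlap (0.79, SE 0.12). Cyp6a9, Cyp6a23, Cyp4p1 and Cyp309a1 rose by 0.79 to 0.84 on the log2 scale, and the groups did not overlap for any of these 4. Cyp12c1 rose by 0.71, with Old arrays at 665, 1291, 774 and 846 against 445, 519 and 604 in Young controls. The highest of these was Old replicate 2, the array with the high actin ratio, and without it Cyp12c1 was no longer called. The other 3 genes raised were Cyp4e2 (0.68), Cyp12d1-d (0.61) and Cyp4e3 (0.59). Cyp12d1-d overlapped between groups, through an Old array at 381 beside Young arrays of 304 to 462.

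Of the 6 genes that fell in Old flies, Cyp313a1 (chromosome 3R) changed most. It gave 2404, 1472, 3775 and 2445 in Old flies, against 6782, 7474 and 8018 in Young controls, a log2 fold change of -1.63 (SE 0.15, adjusted p = 1.55e-09). Even the highest Old array lay below the lowest Young array. Cyp4e1 averaged 399 ± 66.7 in Old flies and 830.3 ± 104 in Young controls (-0.99, SE 0.18, adjusted p = 7.42e-05). Cyp4d14 gave 570.2, 474, 616 and 429 in Old flies, against 857, 905 and 1036 in Young controls (-0.79, SE 0.10). Neither gene overlapped between groups. Cyp6a20, whose mutants are more aggressive in male encounters, averaged 2086 ± 303 in Old flies and 3242 ± 326 in Young controls (-0.63, SE 0.17), and Cyp4ad1 and Cyp4aa1 fell by 0.85 and 0.59 on the log2 scale. Without Old replicate 2, 9 genes rose (8 of them among the 11) and 5 fell (4 of them among the 6). The calls lost were those of Cyp12c1, Cyp12d1-d, Cyp4e3, Cyp6a20 and Cyp4aa1. Testis markers also moved with age: 5 of 6 were called down, and their summed signal was 39875 to 57040 in Old flies, against 73569 to 83788 in Young controls. Of 6 midgut markers 1 was called down, with sums of 144902 to 179797 in Old flies against 212366 to 245203 in Young controls, and of 6 accessory gland markers 3 were called down and 1 up. Their part in the P450 results was not tested.

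In Hyperoxia flies Cyp4e3, a gene linked to pyrethroid tolerance, rose 5.94-fold. Its signal was 3201, 3534 and 3775 (lowest, median, highest of 6) in Hyperoxia flies, against 423, 576 and 644 in Young controls, a log2 fold change of 2.57 (SE 0.14, adjusted p = 7.48e-15). The lowest Hyperoxia array lay far above every Young array. Cyp309a1 gave 3123, 3259.9 and 3518 in Hyperoxia flies, against 1013, 1141 and 1228 in Young controls (1.52, SE 0.15, adjusted p = 1.68e-09), and Cyp309a2 averaged 559.9 ± 116 in Hyperoxia flies and 226 ± 45.1 in Young controls (1.17). Cyp28a5 averaged 2711 ± 605 in Hyperoxia flies and 1192 ± 86.5 in Young controls (1.14), and Cyp6d2 gave 932, 1269 and 1737 in Hyperoxia flies, against 521, 573 and 713 in Young controls (1.03, SE 0.15). None of these overlapped. Cyp9b1, Cyp4ac3 and Cyp6a8 rose by 0.90, 0.77 and 0.69 on the log2 scale, and Cyp4p1, Cyp6a2 and Cyp12d1-d by 0.61, 0.59 and 0.59, just past the threshold.

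The strongest decrease in Hyperoxia flies was that of Cyp4d14 (chromosome X), which gave 166, 195 and 234, against 857, 905 and 1036 in Young controls. The groups were far apart, with a log2 fold change of -2.05 (SE 0.091, adjusted p = 4.43e-17). Cyp6t1 averaged 381 ± 114 in Hyperoxia flies and 1015 ± 102 in Young controls (-1.38, SE 0.24, adjusted p = 6.83e-05). Cyp4ac2 and Cyp4ac1 fell by 1.18 and 0.99 on the log2 scale, and Cyp6a18, Cyp6a21, Cyp4e1 and Cyp4d21 by 0.92, 0.92, 0.83 and 0.73, none with overlap between groups. Cyp4d21, also known as sxe1, is named for its sex-dependent expression. Cyp4ad1 was called (-0.84, SE 0.24) although its Hyperoxia arrays, from 57.9 to 320.2, overlapped the Young arrays, from 287 to 432. Midgut and accessory gland markers fell in the same flies: 4 of 6 midgut genes were called down, with sums of 145850 to 175500 in Hyperoxia flies against 212366 to 245203 in Young controls, and 5 of 6 accessory gland genes, with sums of 20279.5 to 25032 against 38834 to 43404. Of 4 Malpighian tubule markers measured 2 were called down, with sums of 2915 to 3619 in Hyperoxia flies against 4718 to 5252 in Young controls, and of 6 fat body markers 2 were called up and 2 down, with sums of 28241 to 33663 in Hyperoxia flies against 40399 to 55658 in Young controls. The part of these markers in the P450 results was not tested.

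Old and Hyperoxia flies differed in named P450 genes when set against each other directly. At a false discovery rate of 1%, 18 P450 genes were higher and 6 lower in Old than in Hyperoxia flies, beside 7.9% and 11.7% of all genes. Cyp4e3 was lower in Old flies, with a log2 difference of -1.98 (SE 0.16, adjusted p = 5.4e-11), as were Cyp313a1 (-1.17), Cyp6d5 (-0.79), Cyp309a1 (-0.73) and Cyp6d2 (-0.68). Cyp4d14 was higher in Old flies by 1.26 log2 units (SE 0.10, adjusted p = 5.6e-11), followed by Cyp6a23 (0.97) and Cyp6a13 (0.85). Without Old replicate 2 the counts were 13 higher and 4 lower.

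Heat stress lowered P450 genes far more often than it raised them, and the 5 genes raised were all of the Cyp6 and Cyp12 families. These flies were also in 1% sucrose vials for the 5.5 h, and no group had such vials for that time without heat. Heat and the change of vial therefore cannot be told apart here. Cyp6a19 (chromosome 2R) gave 568, 610.4 and 568 in Heat stress flies, against 56.3, 68.0, 60.2 and 50.0 in Stress controls, a log2 fold change of 2.67 (SE 0.29, adjusted p = 2.64e-08). It was near the background of the array in every group except heat, where all 3 arrays stood apart: the highest signal on the other 32 arrays was 213. With controls this dim the size of the change depends on the pseudocount, and over the alternatives the log2 fold change ran between 1.96 and 3.30. Cyp6a20 gave 5042, 4104 and 4075 in Heat stress flies, against 865, 1504, 979 and 1766 in Stress controls (1.81, SE 0.20, adjusted p = 3.35e-08), without overlap. Cyp6t3, which in larvae takes part in ecdysteroid synthesis, gave 683, 824 and 1256 in Heat stress flies, against 163, 316, 303 and 399.8 in Stress controls (1.53, SE 0.21). Cyp6a23 averaged 1960.3 ± 174 in Heat stress flies (n = 3) and 871 ± 93.7 in Stress controls (n = 4), a log2 fold change of 1.14. Cyp12d1-d, a phenobarbital-inducible mitochondrial P450 linked to insecticide resistance, gave 9484, 7978 and 8629 in Heat stress flies, against 5069.8, 4603, 4267 and 3582 in Stress controls (0.99, SE 0.19). A second probe set, shared by Cyp12d1-d and its near-identical copy Cyp12d1-p, rose by 1.65, so that the signal of the copies may be mixed.

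The 23 genes lowered by heat included 8 each of the Cyp4 and Cyp6 families. Cyp4d21 gave 369, 388 and 367 in Heat stress flies, against 1228, 1749.6, 1089 and 2036 in Stress controls, a log2 fold change of -1.88 (SE 0.22, adjusted p = 1.21e-07). The Heat stress arrays lay close together and below every control. Cyp6a2, a phenobarbital-inducible gene raised in DDT-resistant strains, gave 2064, 2191 and 2435 in Heat stress flies, against 5583, 5056, 6437 and 4531 in Stress controls (-1.25, SE 0.15, adjusted p = 2.69e-07). Cyp9h1 averaged 123 ± 79.5 in Heat stress flies and 344 ± 39.1 in Stress controls (-1.34), and Cyp4aa1 averaged 518 ± 88.3 and Cyp4ac1 574 ± 100.1 in Heat stress flies, against 1239 ± 200.5 and 1288 ± 61.1 in Stress controls. Cyp6a18 and Cyp6a21 fell by 1.09 and 1.05 on the log2 scale. Cyp4d1 fell by 1.48 (SE 0.35), but without Heat stress replicate 1 or 3 it was no longer called. Among abundant members, Cyp6g1, the DDT-resistance gene, averaged 7857 ± 1181 in Heat stress flies and 13110.3 ± 816 in Stress controls (-0.74, SE 0.11), and Cyp12a4, linked to lufenuron resistance, averaged 3031 ± 388 in Heat stress flies and 5263 ± 269 in Stress controls (-0.79, SE 0.11). Cyp9f2 fell by 0.66, and its other probe set by 0.79. Of 6 midgut markers 5 were called down in the same flies, with sums of 74268.5 to 86610.3 in Heat stress flies against 191437 to 223936 in Stress controls, and 2 of 6 accessory gland markers were called down. Their part in the P450 results was not tested.

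Ionizing radiation raised Cyp4ac3 (chromosome 2L) 6.02-fold. The gene gave 2138, 2012, 2312 and 2545 in irradiated flies, against 390.4, 372, 366 and 249.5 in Stress controls, a log2 fold change of 2.59 (SE 0.16, adjusted p = 4.25e-14). Every irradiated array was far above every control. Cyp6d2 gave 893, 1419, 1015 and 1257 in irradiated flies, against 283, 231, 239.7 and 309 in Stress controls (1.95, SE 0.18, adjusted p = 3.25e-10). Cyp4e3 gave 2888, 3949, 2406 and 1777 in irradiated flies, against 1346, 1009, 1551 and 978 in Stress controls (1.12, SE 0.18). Both genes were without overlap. Cyp4p3, Cyp6t3, Cyp9b1, Cyp4p1 and Cyp12a5 rose by 1.09, 0.85, 0.82, 0.76 and 0.74 on the log2 scale, and Cyp309a1 and Cyp6a14 by 0.63 and 0.64. Cyp6a14 overlapped between groups, with an adjusted p of 0.18 in its own comparison, and both of these calls were lost when single arrays were left out.

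Of the 16 genes lowered by radiation, Cyp4d14 gave 187, 181, 156 and 163 in irradiated flies, against 808, 932, 952 and 837 in Stress controls, a log2 fold change of -2.13 (SE 0.11, adjusted p = 1.12e-15). Cyp4d1 averaged 96.2 ± 41.4 in irradiated flies and 492 ± 68.0 in Stress controls (-2.02, SE 0.32, adjusted p = 1.06e-05), and Cyp4d21 averaged 447 ± 117 in irradiated flies and 1526 ± 444 in Stress controls (-1.68, SE 0.21). All 3 of these Cyp4d genes were without overlap. Cyp6a18 averaged 690.4 ± 88.6 in irradiated flies and 2044 ± 142 in Stress controls (-1.52), and Cyp6t1, Cyp4aa1, Cyp313a1 and Cyp4e1 fell by 1.47, 1.45, 1.39 and 1.27 on the log2 scale. Cyp6a8, raised in Old and Hyperoxia flies, fell by 0.72 after radiation (SE 0.13, adjusted p = 5.14e-05). It gave 548, 617, 597 and 532 in irradiated flies, against 666, 697, 731 and 517 in Sugar flies, and these groups overlapped (-0.17, adjusted p = 0.398). In Sugar flies it was below every Stress control too, with a log2 fold change of -0.55 that was not called.

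Hydrogen peroxide raised Cyp4ac3 as well, 6.76-fold, with signals of 1946, 2614, 2605 and 3055 in peroxide-treated flies, against 390.4, 372, 366 and 249.5 in Stress controls. The log2 fold change was 2.76 (SE 0.16, adjusted p = 7.29e-15). Cyp6d2 averaged 861 ± 190.4 in peroxide-treated flies and 266 ± 36.7 in Stress controls (1.55, SE 0.18). Cyp28a5 gave 1662, 1533, 1583 and 1636 in peroxide-treated flies, against 438, 684, 707 and 578 in Stress controls (1.38, SE 0.16, adjusted p = 2.21e-08). All 4 treated arrays lay close together and far above the highest control. Cyp6t3 and Cyp6a14 rose by 1.26 and 1.24 on the log2 scale, Cyp4p1 by 1.15, and Cyp309a2 and Cyp4p3 by 0.93 and 0.84. Cyp6a17, which affects the temperature that flies prefer, averaged 2785 ± 422 in peroxide-treated flies and 1603 ± 173 in Stress controls (0.78, SE 0.14). Sugar flies showed a rise of 0.85 in this gene too, and their arrays overlapped those of peroxide-treated flies.

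Cyp4d14, Cyp6t1 and Cyp313a1 each fell at least 5.08-fold after peroxide. Cyp4d14 gave 133, 94.4, 104 and 96.6 in peroxide-treated flies, against 808, 932, 952 and 837 in Stress controls, a 6.34-fold fall (log2 fold change -2.66, SE 0.11, adjusted p = 4.47e-18). Cyp6t1 gave 27.4, 65.5, 224 and 23.6 in peroxide-treated flies, against 602, 524, 608 and 638 in Stress controls (-2.61, SE 0.29, adjusted p = 1.86e-08). The peroxide arrays of Cyp6t1 were uneven, with replicate 3 well above the others, yet all lay below the controls. Of its treated arrays 2 lay below the added 38.9, so the size of the fall is not fixed, and over the alternatives the log2 fold change ran between -3.38 and -1.88. Cyp313a1 gave 1391, 1138, 1855 and 1853 in peroxide-treated flies, against 7945, 8194, 8033 and 7554 in Stress controls (-2.35, SE 0.17, adjusted p = 1.23e-12). Cyp4d21 averaged 442 ± 171 in peroxide-treated flies and 1526 ± 444 in Stress controls (-1.74), and Cyp4e1, Cyp6a18, Cyp311a1 and Cyp4ac2 fell by 1.60, 1.56, 1.52 and 1.30 on the log2 scale. Cyp6g1 fell to a mean of 7869.7 ± 1154 in peroxide-treated flies, against 13110.3 ± 816 in Stress controls (-0.74, SE 0.11), and Cyp312a1 fell by 0.82.

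Tissue markers moved with radiation and peroxide. Of 6 midgut markers, 4 were called down after radiation and 6 after peroxide, with sums of 128856 to 145598 in irradiated flies and 47666 to 80788 in peroxide-treated flies, against 191437 to 223936 in Stress controls. Of 6 accessory gland markers, 5 were called down after each treatment, with sums of 15434 to 16367 in irradiated flies and 11561.5 to 18502 in peroxide-treated flies, against 56165 to 61851 in Stress controls. Fat body markers moved both ways, with 2 up and 2 down after radiation and 2 up and 3 down after peroxide, and sums of 32611 to 40074 in irradiated flies and 28524 to 33786 in peroxide-treated flies, against 42354 to 50802 in Stress controls. Of 4 Malpighian tubule markers 1 was called down after each treatment. The part of these markers in the P450 results was not tested.

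**Figure D3:**
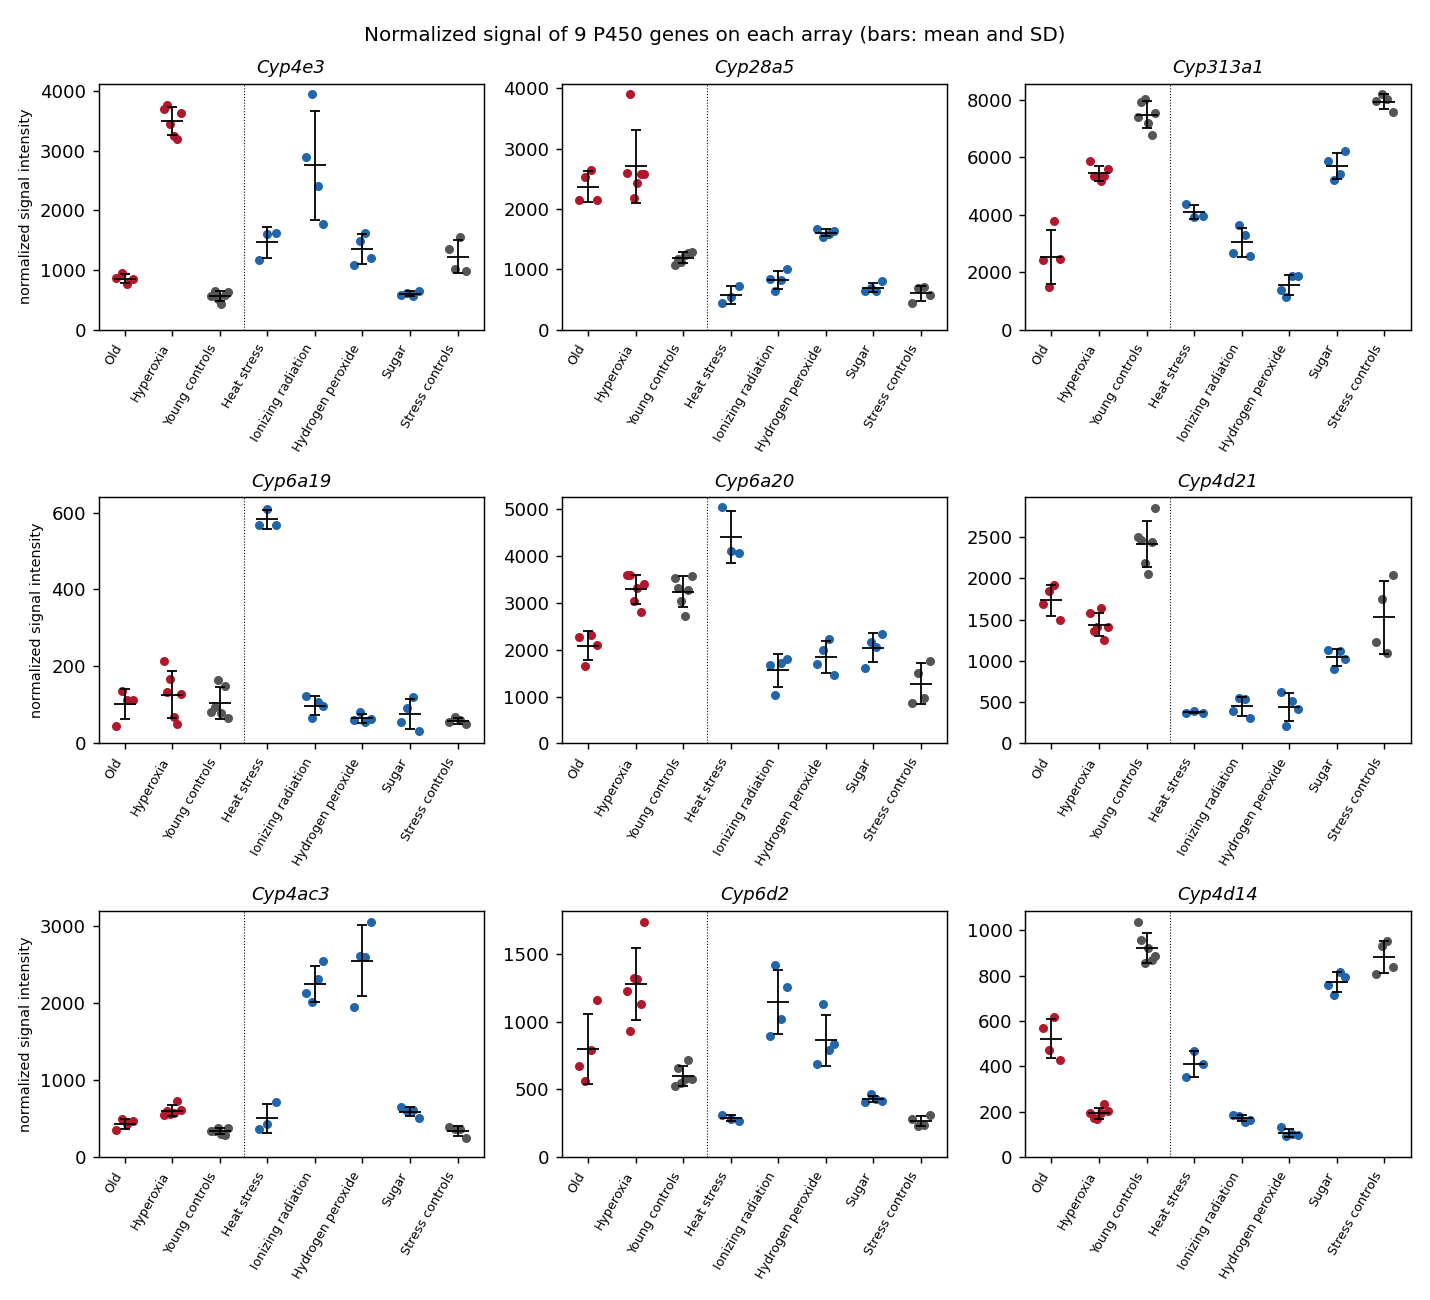
Normalized intensity (arbitrary units) of 9 P450 genes, 1 panel per gene and 1 point per array, with bars for the mean and SD of each group. Cyp4ac3 is at 1946 or more on all 8 irradiated and peroxide-treated arrays and at most 730.2 on all others, while Cyp6a19 is at 568 or more on the 3 Heat stress arrays and at most 213 elsewhere.

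In Sugar flies 7 P450 genes rose and 2 fell (8.64% and 2.47%), beside 2.93% and 2.19% of all genes. Cyp28d1 gave 11304, 10957, 10884 and 12339 in Sugar flies, against 5509.8, 6709.8, 6537 and 5964 in Stress controls (0.88, SE 0.13, adjusted p = 3.19e-05), and Cyp6a17 averaged 2923 ± 203 in Sugar flies and 1603 ± 173 in Stress controls (0.85). Neither overlapped. Cyp6w1, another phenobarbital-inducible gene, averaged 11483 ± 676 in Sugar flies and 6717 ± 789.6 in Stress controls (0.78), and Cyp4ac3 rose by 0.73. Cyp6a14, Cyp6a20 and Cyp6d2 were called up at 0.82, 0.70 and 0.63, with adjusted p of 0.115, 0.013 and 0.0219 in the comparison alone, and Cyp6a20 overlapped between groups. Cyp4e3 gave 579, 608, 557 and 654 in Sugar flies, against 1346, 1009, 1551 and 978 in Stress controls (-0.96, SE 0.18, adjusted p = 0.00063), and Cyp6a18 fell by 0.59. Of 6 midgut markers 3 and of 6 accessory gland markers 4 were called down in the same flies, with midgut sums of 163234 to 173328 in Sugar flies against 191437 to 223936 in Stress controls, and their part in the P450 results was not tested.

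Since irradiated and peroxide-treated flies had also spent 2 days in sucrose vials and were of the same age as Sugar flies, they were compared with them directly, by a moderated test at a false discovery rate of 1% and at least 1.5-fold. Against Sugar flies, radiation raised 6 P450 genes and lowered 19, beside 6.27% and 8.2% of all genes, and peroxide raised 8 and lowered 22, beside 6.55% and 9.12%. Cyp4ac3 was higher than in Sugar flies by 1.86 after radiation and by 2.03 after peroxide (SE 0.16 each), and Cyp6d2 by 1.32 and 0.92 (SE 0.18 each). Cyp4d14 was lower than in Sugar flies, with log2 differences of -1.94 after radiation and -2.48 after peroxide (SE 0.11 each). Cyp4e3, not called against Stress controls after peroxide (0.15), averaged 1351 ± 245 in peroxide-treated flies and 599.6 ± 42.2 in Sugar flies (1.11, SE 0.18, adjusted p = 9.83e-06). Cyp28d1 averaged 5185 ± 1161 in peroxide-treated flies and 3581 ± 381 in irradiated flies, against 11371 ± 671 in Sugar flies (-1.15 and -1.66, SE 0.13 each). The 2 comparisons share the Sugar arrays. These arrays also differed as a set in deposited scale (trimmed means of 106 to 166, against 992 to 995). Their actin 3'/5' ratios were 2.65 to 3.51, against 1.88 to 2.34 after peroxide and 1.79 to 7.44 after radiation. Such array differences and the Sugar group cannot be told apart.

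In all, 9 direct differences between groups or comparisons were tested, and each had P450 genes past the threshold in both directions. Besides Old against Hyperoxia, 3 are described by their genes. Between Heat stress and Hydrogen peroxide, 10 P450 genes were higher and 19 lower in heat, beside 8.33% and 10.4% of all genes. Cyp6a19 was higher by 2.59 (SE 0.29), Cyp6t1 by 1.77 and Cyp4d14 by 1.62, and Cyp4ac3 (-2.29) and Cyp4p1 (-1.91) were lower. Between Hydrogen peroxide and Ionizing radiation, 8 were higher and 9 lower in peroxide, beside 6.34% and 6.39% of all genes. Cyp6a8 (1.03, SE 0.13) and Cyp28a5 (0.94, SE 0.16) were higher after peroxide, and Cyp6t1 (-1.14), Cyp4e3 (-0.97) and Cyp313a1 (-0.96) were lower. The change with age differed from the change with heat for 27 genes, 24 of them more positive with age and 3 more positive with heat, beside 9.03% and 12% of all genes. Cyp6a2 (1.82, SE 0.20), Cyp6a13 (1.72, SE 0.15), Cyp4p1 (1.59, SE 0.17) and Cyp4e2 (1.58, SE 0.12) were more positive with age, and Cyp6a19 (-2.71, SE 0.38), Cyp6a20 (-2.44, SE 0.26) and Cyp6t3 (-1.28, SE 0.27) with heat. Cyp4p1, for example, rose by 0.84 in Old flies and fell by 0.75 in Heat stress flies, and Cyp6a20 fell by 0.63 in Old flies and rose by 1.81 in Heat stress flies. In all, 9 genes were called in both directions among the 6 comparisons: Cyp28d1, Cyp4e2, Cyp4e3, Cyp4p1, Cyp6a13, Cyp6a2, Cyp6a20, Cyp6a8 and Cyp6w1.

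The aging and stress experiments used separate controls, so their lists could be set side by side. All 9 genes that fell in Hyperoxia flies also fell after peroxide (100% of 9, 47.4% of 19), where of all genes 75.6% of those lowered in Hyperoxia were lowered by peroxide too. Of these, Cyp4ad1 was the least secure: its call in Hyperoxia and its call after peroxide were both lost under the single-comparison test, and the call after peroxide also without any of 5 arrays. Of the same 9 genes, 8 fell after radiation (88.9% of 9, 50% of 16), beside 67.9% over all genes, and 6 after heat (66.7% of 9, 26.1% of 23), beside 46.3%. The heat call of Cyp6t1, which is among these 6, was lost without any of several arrays. It was also lost under the single-comparison test. Of the 11 genes raised in Hyperoxia flies, 6 also rose after radiation (54.5% of 11, 60% of 10), beside 61.5% over all genes, namely Cyp309a1, Cyp4ac3, Cyp4e3, Cyp4p1, Cyp6d2 and Cyp9b1. After peroxide 5 of the 11 rose (45.5% of 11, 50% of 10), beside 56.4%. Of the 6 genes that fell in Old flies, 5 also fell after peroxide (83.3% of 6, 26.3% of 19), beside 16.3% over all genes. After radiation 4 of the 6 fell (66.7% of 6, 25% of 16), beside 23.3%, and after heat 3 (50% of 6, 13% of 23), beside 11.2%. Of the 11 that rose in Old flies, 2 rose after heat (Cyp12d1-d and Cyp6a23, 18.2% of 11 and 40% of 5), beside 18.5% over all genes, 3 after radiation (27.3% of 11, 30% of 10), beside 46.3%, and 2 after peroxide (Cyp28a5 and Cyp4p1, 18.2% of 11 and 20% of 10), beside 43.1%. Of the Old genes in these overlaps, Cyp12d1-d, Cyp4e3 and Cyp4aa1 lost their Old call without Old replicate 2. Cyp4ad1 lost its Old call without Old replicate 4 and by the single-comparison test. No P450 gene was called in the same direction in all 6 comparisons, and Cyp4d14 was called down in 5. Cyp313a1 and Cyp312a1 lay below their controls without overlap in the same 5, Old, Hyperoxia, heat, radiation and peroxide, although not all of these were calls. They were not alone: Cyp4d14, Cyp4d21 and Cyp4e1, for example, did so too, and the share of all genes that did was not counted. Cyp313a1 was also below every Stress control in Sugar flies (5219 to 6221 against 7554 to 8194), where it was not called. Cyp313a1 was not called in Hyperoxia (-0.46). Cyp312a1 was called after peroxide alone (-0.82), with log2 fold changes of -0.35 in Old, -0.55 in Hyperoxia, -0.49 in heat and -0.58 after radiation.

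P450 genes formed 15 runs of neighbours with no other protein-coding gene between them, and 4 of these runs held calls in opposite directions in at least 1 comparison, while 11 did not. Not all of the 11 could: of Cyp12d1-p and Cyp12d1-d only 1 was measured, and Cyp313a5, Cyp313a2 and Cyp313a3 were dim and never called. Runs of other genes were not counted, so these numbers describe the P450 runs only. Among those 11, Cyp309a1 and Cyp309a2 rose together in Hyperoxia, and Cyp4p1 and Cyp4p3 after radiation and after peroxide. The 4 runs with opposite calls are described next. In the run of Cyp4ac1, Cyp4ac2 and Cyp4ac3 on chromosome 2L, the first members, Cyp4ac1 and Cyp4ac2, fell while Cyp4ac3 rose in Hyperoxia, radiation and peroxide. After peroxide Cyp4ac1 gave 536, 490.5, 418 and 572 in treated flies, against 1298, 1221, 1366 and 1265 in Stress controls (-1.30, SE 0.14), beside the 6.76-fold rise of Cyp4ac3. On chromosome 2R, Cyp6a22, Cyp6a17, Cyp6a23, Cyp6a19, Cyp6a9, Cyp6a20, Cyp6a21, Cyp6a8 and Cyp317a1 follow each other as a run of 9. In heat, Cyp6a23, Cyp6a19 and Cyp6a20 rose and Cyp6a21 fell by 1.05. In Old flies, Cyp6a23, Cyp6a9 and Cyp6a8 rose and Cyp6a20 fell, and in Hyperoxia flies Cyp6a8 rose and Cyp6a21 fell. Cyp4ad1, Cyp4e2 and Cyp4e1, a run of 3 on the same arm, gave a fall, a rise and a fall in Old flies. In the run of Cyp6g1, Cyp6g2 and Cyp6t3, Cyp6g1 fell and Cyp6t3 rose in heat and in peroxide, and Cyp6g2 was never called. Similar sequences among such neighbours can share hybridization, which the probe sets used here do not resolve.

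**Figure D4:**
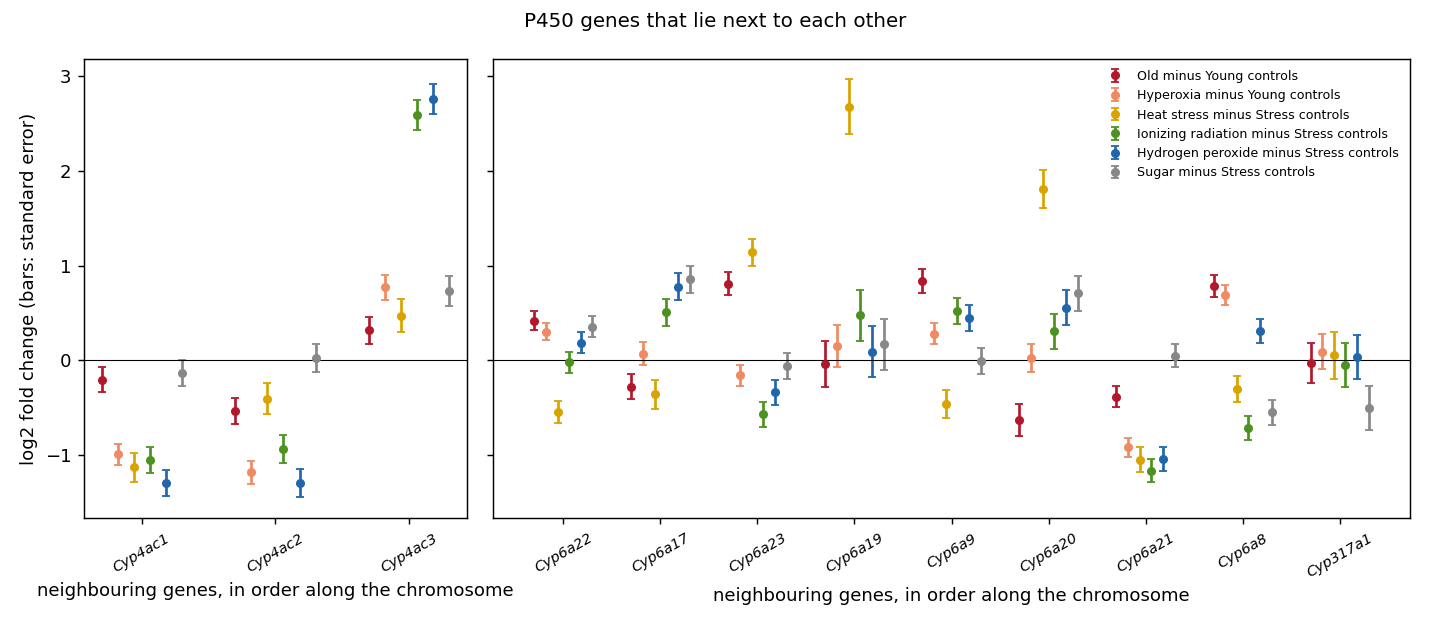
Log2 fold change with its standard error for the run Cyp4ac1 to Cyp4ac3 and for the run of 9 genes from Cyp6a22 to Cyp317a1, in chromosomal order, in the 6 comparisons. Cyp4ac3 stands above 0 beside falling neighbours in Hyperoxia, radiation and peroxide, and the rise in heat is called for Cyp6a23, Cyp6a19 and Cyp6a20.

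Phenobarbital-inducible members did not move as 1 group. Of the 5 measured (Cyp6a2, Cyp6a8, Cyp6d5, Cyp6w1 and Cyp12d1-d), 2 were called up in Old and 3 in Hyperoxia flies with none called down. Their medians were 0.56 and 0.59, and 5.48% and 3.45% of all genes were called up there. In heat 1 rose and 2 fell (median -0.54), beside 6.01% and 8.07% of all genes. After radiation 1 fell, after peroxide none was called, and in Sugar 1 rose. Of the calls in Old flies, that of Cyp12d1-d was lost without Old replicate 2. In Hyperoxia flies the calls of Cyp6a2 and Cyp12d1-d were each lost without any of several single arrays. Both were also lost with the 25th percentile as pseudocount. Cyp6a2 averaged 1814 ± 195 in Hyperoxia flies and 1189.8 ± 139 in Young controls (0.59), while in Old flies its rise of 0.56 stayed under 1.5-fold. Cyp6d5 was not called in any of the 6, but it gave 12718, 12178, 14364 and 13486 in Old flies, against 17129, 18101 and 19485 in Young controls, without overlap (-0.46, SE 0.078, adjusted p = 3.05e-05) and under 1.5-fold. The levels of some of these genes also differed between the control groups: Cyp12d1-d averaged 4381 in Stress controls and 391 in Young controls, Cyp6a2 5402 and 1189.8, and Cyp6a8 980.5 and 3531. Which experiment an array belonged to and its control group cannot be told apart, so no test was made.

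The 31 genes called in none of the 6 included some with well-known roles. Cyp4g1, which makes cuticular hydrocarbons in oenocytes, averaged 51872 in Old flies, 58698 in Hyperoxia flies and 52891 in Young controls, and changed by at most 0.48 (in Sugar) on the log2 scale. Its array values repeat exactly at the top of the scale, for example 96503 on 3 of 4 Sugar arrays, so that changes there are compressed. Cyp18a1, which inactivates ecdysteroids, was not called in any of the 6, although it was lower in peroxide-treated than in Sugar flies (-0.73). Cyp303a1 and Cyp301a1, needed for sensory bristles and cuticle, Cyp4g15, Cyp6g2, Cyp9b2 and Cyp9c1 were not called in any of the 6 either. Of the 81 genes, 8 had a highest group mean under the 25th percentile of all signals (122), and 3 of these, Cyp313a3, Cyp316a1 and Cyp4c3, under 38.9, where a change could not be measured.

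Of the electron partners listed, Fdx1, Fdx2, Cyt-b5 and Cyt-b5-r were measured, and Cpr and dare were not. Of these 4, 1 rose in Old flies and 1 after radiation, 1 rose and 1 fell in heat, and 1 fell after peroxide. Each such call is 25% of only 4 genes. In the same comparisons and directions, 5.48% to 9.76% of all genes were called. Fdx1, a mitochondrial ferredoxin that passes electrons to mitochondrial P450s, averaged 4007 ± 274 in Heat stress flies and 552 ± 87.8 in Stress controls (2.78, adjusted p = 1.4e-13), and it rose by 1.82 after radiation and by 0.59 in Old flies. Fdx2 and Cyt-b5, the microsomal electron donor cytochrome b5, were not called, and Cyt-b5-r fell by 0.65 in heat and 0.66 after peroxide. Among 5 regulators of detoxification genes, Keap1, which restrains the transcription factor encoded by cnc, averaged 1707 ± 295 in Heat stress flies and 341 ± 45.5 in Stress controls (2.19, adjusted p = 3.3e-09), and maf-S, encoding the partner of that factor, rose by 0.93 after peroxide. The genes cnc, Hr96 and tgo were not called in any of the 6. Of the 4 ecdysone-synthesis P450 genes that carry other names (dib, sad, shd and spo), 0 were called in any of the 6 comparisons. Against Sugar flies, 1 of them was higher after radiation, by 1.30. Of 33 UDP-glycosyltransferases, which conjugate P450 products, 1 rose and 4 fell in Hyperoxia (12.1% down, beside 4.8% of all genes), 2 rose and 5 fell in heat (15.2% down, beside 8.07%), 0 rose and 6 fell in radiation (18.2% down, beside 8.23%), and 0 rose and 7 fell in peroxide (21.2% down, beside 9.76%). In Old and in Sugar flies 1 rose and 1 fell. Ugt37B1 fell by 2.17 in Hyperoxia and fell by 2.01 after peroxide, and Ugt35C1 rose by 1.15 in heat and 0.63 in Old flies.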

How the data were processed

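The deposited values are MAS5 signal intensities of Affymetrix DrosGenome1 arrays, on a linear scale; per the labels the authors prepared biotinylated cRNA from 6 µg of total RNA and used MAS5 (version not stated). The Sugar arrays were deposited at a lower overall scale. After leaving out 44 control probe sets, 13966 were quantile normalized over all 35 arrays, the 10th percentile (38.9) was added and log2 taken. Group means of 8 groups were fitted with limma 3.58.1 in R 4.3.3 (27 residual degrees of freedom, 30.2 after moderation), with the nested F-test over 6 comparisons at a false discovery rate of 1% and 1.5-fold, after the study's methods, and p-values adjusted by Benjamini-Hochberg over all 13966. All adjusted p-values come from limma. Genes came from the platform annotation (12443 probe sets with 1 gene, 327 with several, 1196 with none), with symbols and chromosomes from the RefSeq Release 6 table, where 45 symbols were not found. Named genes were the called members of each comparison and direction in order of size, up to 8, plus members with known roles; Cyp4e2, Cyp6a22 and Cyp317a1 (neighbours of named genes) and the 3 dimmest members were named after their values were seen. The members and lists were chosen with earlier results of these data known. On simulated data, 54.5% to 68.9% of 2-fold changes passed the F-test. Alternatives were another scaling, pseudocounts, a filter on dim probe sets, fits of 2 groups, a single-comparison test, a 2-fold threshold, averaged probe sets, a replicate block and leaving out each array. The number of arrays limits the precision.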

Additional observations from a re-analysis of the deposited data

Results flagged for a closer look

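In 21 of 357 pairs of a named gene and a group of 4 to 6 arrays, 1 array lay far from the rest, and chance alone flags about 1 in 20 such groups. Among genes that carry calls, Cyp12d1-d was 381 on Old replicate 3, with the next Old array at 695, and Cyp28a5 was 3904 on Hyperoxia replicate 2, with the next at 2591. Cyp4ac2 was 350.1 and Cyp311a1 191 on Ionizing radiation replicate 1, Cyp6t3 was 596 on replicate 3 and Cyp6a20 1039.9 on replicate 2 of the same group. In peroxide-treated flies, replicate 2 had Cyp4p3 at 1801 and Cyp6g2 at 94.3, and replicate 4 had Cyp6a17 at 2156, Cyp4g1 at 55581 and Cyp4g15 at 1927. Hyperoxia replicate 5 had Cyp12a4 at 6010.1, replicate 4 Cyp9b1 at 601 and replicate 1 Cyp9c1 at 3235. Among Young controls, Cyp6a9 was 5340.4 on replicate 2, Cyp6w1 5670.1 on replicate 3, Cyp301a1 349 on replicate 4 and Cyp303a1 162 on replicate 5. Cyp4g1 was 88725 on Sugar replicate 3, and among Stress controls Cyp4p3 was 922 on replicate 1 and Cyp6d5 14119.5 on replicate 3. What set these arrays apart was not tested.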

How the results depend on the processing

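No call of a named gene changed direction under the alternatives run, and of these 115 calls 112 held when arrays were scaled to a common trimmed mean, 105 with the 25th percentile as pseudocount, 113 with a pseudocount of 1, 115 without dim probe sets, 115 with averaged probe sets, 107 by the single-comparison test, 97 with only 2 groups in the fit and 53 at a 2-fold threshold. At 2-fold, 0 P450 genes rose and 1 fell in Old, 5 and 3 in Hyperoxia, 9 fell in heat, 4 rose after radiation, 6 and 12 after peroxide, 0 and 0 in Sugar, 3 and 10 in radiation against Sugar, and 5 and 12 in peroxide against Sugar. With only 2 groups fitted, 6 genes rose after radiation and 4 in Sugar, where the single-comparison test also gave 4. With the 25th percentile as pseudocount, 1 fell in Sugar. The cause of these shifts was not tested, apart from the higher threshold itself. Leaving out 1 array at a time gave 9 to 13 up and 5 to 7 down in Old, 9 to 12 and 9 to 10 in Hyperoxia, 5 to 6 and 18 to 23 in heat, 8 to 11 and 16 to 19 in radiation, 10 to 12 and 17 to 21 in peroxide, 6 to 7 and 1 to 3 in Sugar, 5 to 6 and 18 to 20 in radiation against Sugar, and 7 to 9 and 18 to 23 in peroxide against Sugar. The Sugar count of 1 came without Stress controls replicate 4 or Sugar replicate 1 or 2. For direct differences, whose alternatives were chosen after seeing the data, the ranges were 13 to 18 higher and 4 to 6 lower in Old against Hyperoxia, 10 to 14 and 16 to 21 in heat against peroxide, 5 to 9 and 6 to 10 in peroxide against radiation (5 without Hydrogen peroxide replicate 3, 6 without Ionizing radiation replicate 1), and 20 to 24 and 3 to 4 for age against heat. Cyp12d1-d in Old and Hyperoxia, Cyp4aa1 and Cyp4e3 in Old, Cyp4ad1 after peroxide and Cyp309a1 after radiation lost their call without any of several arrays. So did Cyp6t1 in heat, Cyp6a14 after radiation, Cyp6a2 in Hyperoxia and Cyp6a18 in Sugar. Some other calls, such as those of Cyp4d1 in heat and Cyp4p1 in Hyperoxia, were lost without fewer arrays. Same-numbered arrays did not deviate together (correlations of deviations from -0.0912 to 0.0752 over 13 pairs of groups), and a fit with the replicate number as a block kept 110 of the 115 calls and gave 5 genes higher in peroxide than in radiation, with all other counts within 1.5 times. Dim members and the compressed top of the scale limit what can be seen.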

Other observations

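The cyclophilin genes Cyp1 and Cyp40, which share only the first letters of their symbols with the P450 genes, were not called in any of the 6 comparisons. Cyp1 averaged 14708 in Heat stress flies and 20409 in Stress controls, a log2 fold change of -0.58 (adjusted p = 2.6e-05 by limma) that stayed under 1.5-fold, and 20004 in Old flies and 16831 in Young controls (0.24). Cyp40 changed by -0.17 in Old, 0.13 in Hyperoxia, 0.35 in heat, 0.25 after radiation, 0.45 after peroxide and 0.26 in Sugar flies on the log2 scale.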
